A study of Mus musculus with 8 samples.

Results

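Serpins, cystatins, stefins and Slpi, the protease inhibitor families described here, were measured on 8 Affymetrix arrays of sorted mouse bone marrow progenitors. The tested cells were L-GMPs from leukaemic mice with the genotype HoxA9+Meis1 AML (acute myeloid leukaemia, 4 arrays, replicates A to D), and the cells they were set against were GMPs from normal marrow (4 arrays, replicates A to D). GMP stands for granulocyte-macrophage progenitor. How the leukaemia was made, and the strain and age of the mice, are not given in the sources used here. Members were genes with a symbol starting with Serpin, Cst followed by a digit or Stfa, together with Csta1, Cstb and Slpi. There were 52 of them among the 18193 genes tested, namely 39 serpins, 8 type 2 cystatins, 4 stefins and Slpi. Each gene was read through the probe set (the group of probes on the array for a transcript) with the highest mean over all 8 arrays. Values are log2 of the RMA intensity, a normalized brightness, and differences are L-GMP minus GMP, so that 1 is a doubling.

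Serpins are proteins that most often trap a serine protease by offering a loop as bait and then changing shape around the bound enzyme. Clade A serpins are mostly secreted into plasma by the liver, whereas clade B serpins mostly stay inside cells, where they face proteases that leak from granules. Cystatins and stefins block the cysteine cathepsins of the lysosome, type 2 cystatins as secreted proteins and stefins in the cytosol. Slpi, the secretory leukocyte protease inhibitor, blocks neutrophil elastase and cathepsin G. Progenitors of the GMP stage make large amounts of these granule proteases.

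Of the 52 members, 2 rose and 2 fell in L-GMPs at an adjusted p under 0.05 (limma, Benjamini-Hochberg over all genes tested). Slpi and the stefin Cstb rose, and the serpins Serpinb6b and Serpinf1 fell. The 4 called members are 7.69% of the families, below the 12.1% called among all genes tested. By direction, 3.85% of members were higher, against 4.78% of all genes, and 3.85% were lower, against 7.27%. The median difference of the members was 0.03, and that of all genes was 0.01. The L-GMP and GMP arrays did not overlap in 5 members (9.62%), against 18.2% of all genes, and the fifth of these was Cst6. The other 48 members had differences from -0.48 to 0.32 and adjusted p-values of 0.161 or more.

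Upstream sequence is shown for the called members that RefSeq's promoter table (GRCm38.p6) holds, since these are the genes that changed. That table matched 44 of the 52 members and 3 of the 4 called ones, and Cstb is named only. Each line gives the 250 bases before the annotated start, 5′ to 3′ on the gene's strand, with matches to the searched motifs in capitals. The window of Slpi is chr2:164356508-164356757 on the minus strand, that of Serpinf1 is chr11:75422624-75422873 on the minus strand, and that of Serpinb6b is chr13:32965011-32965260 on the plus strand.
Slpi: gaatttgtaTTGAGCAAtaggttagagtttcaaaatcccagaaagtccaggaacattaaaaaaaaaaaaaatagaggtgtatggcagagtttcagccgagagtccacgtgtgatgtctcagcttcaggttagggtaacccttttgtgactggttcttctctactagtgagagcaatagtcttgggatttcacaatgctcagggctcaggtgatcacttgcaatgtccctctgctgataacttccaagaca
Serpinf1: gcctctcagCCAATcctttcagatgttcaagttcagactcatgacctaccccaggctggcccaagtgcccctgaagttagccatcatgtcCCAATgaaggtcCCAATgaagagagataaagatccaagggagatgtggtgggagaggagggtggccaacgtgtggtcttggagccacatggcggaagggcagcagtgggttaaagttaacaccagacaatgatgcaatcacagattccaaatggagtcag
Serpinb6b: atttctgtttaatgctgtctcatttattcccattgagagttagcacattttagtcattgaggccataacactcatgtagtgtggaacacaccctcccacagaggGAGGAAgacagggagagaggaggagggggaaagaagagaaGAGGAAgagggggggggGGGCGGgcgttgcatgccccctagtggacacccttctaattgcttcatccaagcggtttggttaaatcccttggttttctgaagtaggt

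The motifs searched on both strands were the TATA box with the letters TATAAA, the CCAAT box with CCAAT, the GC box with GGGCGG and the C/EBP motif with TTGCNNAA. The others were the core read by PU.1 with GAGGAA, the MEIS motif with TGACAG, the motif of PBX with HOX with TGATTNAT and the AP-1 motif with TGANTCA. The Slpi window held 1 C/EBP match, at -241 to -234 from the start on the opposite strand, and 9.56% of all 32851 promoter windows of the same length hold that motif. The Serpinf1 window held CCAAT 3 times, a motif present in 33.8% of all windows. The Serpinb6b window held GAGGAA 2 times, at -146 and -106, beside a GC box at -89. These motifs are in 23.3% and 32.7% of all windows. No matches overlapped. Neither the MEIS letters (15.9% of windows) nor the PBX-HOX letters (2.82%) occurred in any of the 3 windows, and the same was true of TATAAA (12.4%) and the AP-1 letters (6.75%). A match describes the letters alone.

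Slpi, the inhibitor of neutrophil elastase, was the member that rose most. It read 11.89, 11.06, 12.01 and 11.74 in L-GMP replicates A to D, against 9.91, 9.81, 10.25 and 9.60 in GMP replicates A to D. Every L-GMP array lay above every GMP array, and the lowest L-GMP value was that of replicate B. The means were 11.67 ± 0.43 in L-GMPs and 9.89 ± 0.27 in GMPs (SD, n = 4 each), a rise of 1.78 (SE 0.21, 95% interval 1.32 to 2.24, 3.43-fold, limma adjusted p = 0.000316). The gene has a single probe set and lies on chromosome 2.

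Macrophages and neutrophils make Slpi, so their markers are given beside it. Of 9 measured monocyte and macrophage markers, 5 rose and 1 fell (55.6% and 11.1%, against 4.78% higher and 7.27% lower among all genes). Their mean log2 level ranged from 7.87 to 8.37 over the L-GMP arrays and from 7.30 to 7.47 over the GMP arrays. It was lowest among L-GMPs in replicate B, as Slpi was. Leaving out single arrays gave 3 to 6 rises. The rises were Cd68 by 2.48, Mpeg1 by 1.93, Adgre1 by 1.56, Lyz2 by 0.66 and Ccr2 by 0.53, while Cx3cr1 fell by 0.75. Csf1r (-0.24), Cd14 (0.99) and Mrc1 (-0.42) did not pass the test. Adgre1 and Ccr2 each lost their call in 6 of the 8 fits without a single array. Over the alternatives the difference of Ccr2 ran from -0.39 to 0.68. Of 10 measured markers of mature neutrophils, 0 rose and 2 fell (20%, against 7.27% lower among all genes). Their mean level ranged from 5.33 to 6.99 in L-GMPs and from 5.76 to 7.46 in GMPs. It too was lowest among L-GMPs in replicate B, so that match with Slpi was not particular to macrophage markers. No marker of the macrophage list lay below the lower quartile of the array (3.65 to 3.75) on every array. Mrc1 was nonetheless dim, at 3.08 to 3.68 in L-GMPs and 3.35 to 4.11 in GMPs. The part of these cell types in the Slpi result was not tested. In sorted cells measured in bulk, more cells of a type and more RNA per cell cannot be told apart.

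Cstb, also called stefin B or cystatin B, is a cytosolic inhibitor of cathepsins. Its readings were 11.40, 11.26, 11.49 and 11.54 in L-GMP replicates A to D, against 10.99, 10.78, 10.83 and 10.83 in GMP replicates A to D. The groups did not overlap, although the gap between the lowest L-GMP array and the highest GMP array was narrow. The rise was 0.57 (SE 0.10, 95% interval 0.34 to 0.79, 1.48-fold, adjusted p = 0.00482), with means of 11.43 ± 0.12 in L-GMPs and 10.86 ± 0.09 in GMPs (SD, n = 4 each). Its other probe set read 8.51 to 8.91 in L-GMPs and 7.94 to 8.43 in GMPs, and also rose, by 0.49 (adjusted p = 0.0378 over all single-symbol probe sets). Both probe sets thus moved the same way, without overlap between groups.

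The remaining stefins were dim and did not pass the test. Stfa3 read 3.36 to 4.10 in L-GMPs and 3.12 to 3.67 in GMPs, a difference of 0.32 (SE 0.18, adjusted p = 0.295). Stfa2l1 had a difference of 0.15 and Csta1 of 0.02. Stefin A genes form a cluster of close copies on chromosome 16 in the mouse, and probes may not separate such copies.

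**Figure D1:**
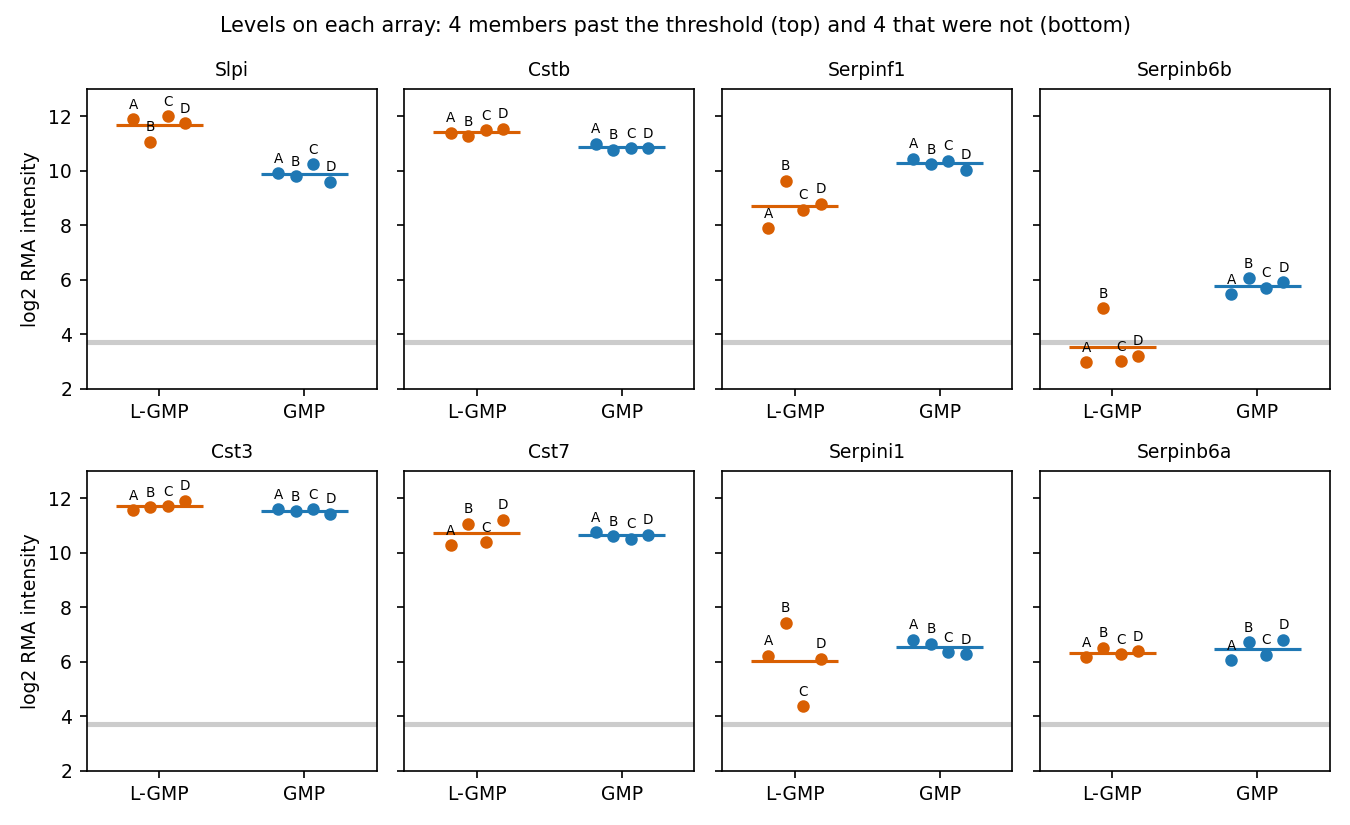
Log2 RMA intensity (vertical axis) of 8 inhibitor genes on each array, L-GMP in orange on the left and GMP in blue on the right of each panel, with replicate letters, group means as lines and the range of the arrays' lower quartiles (3.65 to 3.75) as a grey band. In the top row Slpi and Cstb are higher and Serpinf1 and Serpinb6b lower in L-GMPs with no overlap, and L-GMP replicate B lies nearest to the GMPs in all 4, while the groups overlap in the bottom row.

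Among the 8 type 2 cystatins, 0 passed the test at adjusted p under 0.05 (0 also at an unadjusted p under 0.05). With 12.1% of all genes called, 0 of 8 does not set them apart. Their differences ran from -0.09 to 0.23, with a median of 0.09. Cst3, cystatin C, the general secreted inhibitor of cathepsins, read 11.56, 11.66, 11.69 and 11.90 in L-GMPs, against 11.60, 11.51, 11.59 and 11.42 in GMPs. Its difference was 0.17 (SE 0.10, 95% interval -0.06 to 0.40, adjusted p = 0.348). Cst7, or cystatin F, is sorted to lysosomes of immune cells, where it restrains cathepsin C. Its values were 10.26, 11.06, 10.37 and 11.20 in L-GMPs, against 10.74, 10.60, 10.51 and 10.66 in GMPs. L-GMP replicates B and D lay above all GMPs and replicates A and C below them. The Cst7 groups therefore had nearly the same mean (difference 0.09, 95% interval -0.35 to 0.54) but an SD of 0.48 in L-GMPs and 0.10 in GMPs.

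Cst6, cystatin E/M, an inhibitor of legumain, was the member whose groups did not overlap without passing the test. It read 5.48 to 5.70 in L-GMPs and 5.15 to 5.45 in GMPs, a difference of 0.23 (SE 0.10, adjusted p = 0.199). After centring each array on its median, which moved the median difference of all genes to 0.15, Cst6 passed (0.37, adjusted p = 0.0403). The remaining type 2 cystatins (Cst9, Cst10, Cst11, Cst12 and Cst13), whose genes lie on chromosome 2, had differences from -0.09 to 0.10.

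Serpinf1 encodes pigment epithelium-derived factor, a secreted serpin that inhibits no known protease and restrains the growth of vessels. It read 7.89, 9.63, 8.57 and 8.80 in L-GMP replicates A to D, against 10.45, 10.25, 10.37 and 10.04 in GMP replicates A to D. The GMP arrays lay close together, whereas the L-GMP arrays spread widely, with replicate A lowest and replicate B nearest to the GMPs. Serpinf1 fell by 1.55 (SE 0.29, 95% interval -2.20 to -0.91, adjusted p = 0.00649), with means of 8.72 ± 0.72 in L-GMPs and 10.28 ± 0.18 in GMPs (SD, n = 4 each). That is 2.94-fold lower in L-GMPs. The second probe set read 5.40 to 6.33 in L-GMPs and 6.92 to 7.15 in GMPs, and fell by 1.16 (adjusted p = 0.00325 over all single-symbol probe sets).

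Stromal cells also make Serpinf1. Of 8 stromal and endothelial markers, 1 rose (Pecam1, by 0.75, an adhesion molecule that leukocytes carry too) and 0 fell. That is 12.5%, against 4.78% higher among all genes. The mean level of the markers was 4.38 to 4.54 in L-GMPs and 4.31 to 4.49 in GMPs. The collagen gene Col3a1 read 3.14 to 3.55 in L-GMPs and 3.20 to 3.72 in GMPs. Lum, which encodes the matrix protein lumican, was below the arrays’ lower quartile throughout. The ranges of the list overlapped between groups. Megakaryocyte markers fell in the same comparison, 4 of 7 measured (57.1%, against 7.27% lower among all genes). Their mean level was 4.27 to 4.78 in L-GMPs and 5.52 to 7.0 in GMPs. Markers of eosinophils, basophils and mast cells fell as well, 8 of 10 measured (80%, against the same 7.27%). The fall was thus not particular to megakaryocyte markers. Among the megakaryocyte markers Pf4, platelet factor, fell by 5.10. The part of any of these cells in the Serpinf1 result was not tested.

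No other serpin of clades C to I passed the test. Serpini1, neuroserpin, an inhibitor of tissue plasminogen activator, read 6.22, 7.43, 4.37 and 6.11 in L-GMPs, against 6.81, 6.65, 6.34 and 6.27 in GMPs. The L-GMP arrays ranged from well below to above the GMPs, with replicate C lowest and replicate B highest. In a further probe set replicate B was again highest and replicate C lowest, with 5.04, 6.53, 3.80 and 5.20 in L-GMPs, against 4.75, 5.64, 5.04 and 5.31 in GMPs. The difference was -0.48 with a wide 95% interval of -1.57 to 0.61 (adjusted p = 0.583), and without L-GMP replicate C it was 0.07.

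Serpins of this group that regulate clotting, fibrinolysis and complement in plasma were dim and differed little. Antithrombin (Serpinc1) had a difference of 0.29, heparin cofactor (Serpind1) of -0.11, antiplasmin (Serpinf2) of 0.28 and the complement inhibitor Serping1 of 0.16. Serpinf2, whose mean over all arrays was 3.51, passed once GMP replicate C was left out, and also after median centring. The collagen chaperone Serpinh1 had a difference of 0.03.

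**Figure D2:**
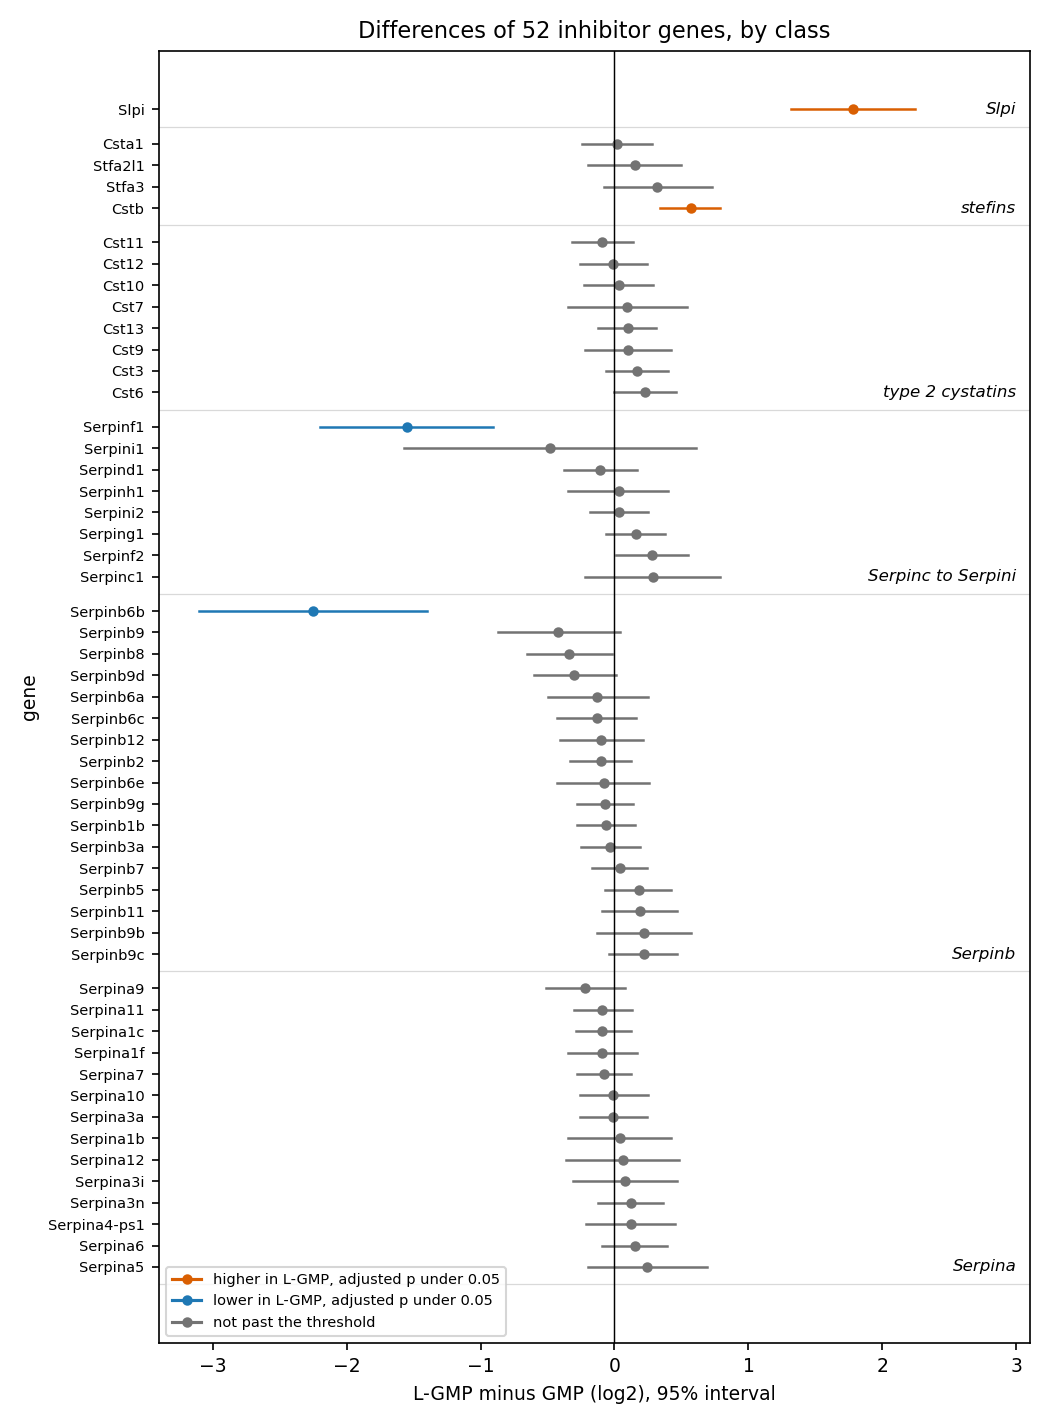
Differences in log2 intensity (L-GMP minus GMP, horizontal axis) with 95% intervals from the moderated fit for all 52 members, ordered within class (vertical axis). Slpi and Cstb (orange) lie to the right of 0, Serpinf1 and Serpinb6b (blue) to the left, and the 48 members in grey lie between -0.48 and 0.32.

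Serpinb6b, an intracellular clade B serpin, fell in L-GMPs. It read 2.98, 4.97, 3.01 and 3.22 in L-GMP replicates A to D, against 5.47, 6.07, 5.71 and 5.92 in GMP replicates A to D. In L-GMPs, replicates A, C and D were under the lower quartile of the arrays, and replicate B lay between them and the GMPs. Serpinb6b fell by 2.25 (SE 0.38, 95% interval -3.10 to -1.40, adjusted p = 0.00375), with means of 3.54 ± 0.96 in L-GMPs and 5.79 ± 0.26 in GMPs (SD, n = 4 each). With 16 added to each intensity before the log, which damps dim values, the fall was 1.31 (adjusted p = 0.00734), against 1.51 for Serpinf1, so the order of these falls depends on the scale. Without L-GMP replicate B it was 2.73. The gene has a single probe set.

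Markers of eosinophils, basophils and mast cells are given beside Serpinb6b. Of 10 measured, 8 fell (80%, against 7.27% lower among all genes). Their mean level was 4.94 to 5.78 in L-GMPs and 8.15 to 9.37 in GMPs. Among L-GMPs this mean was highest in replicate B, as Serpinb6b was, but of the single genes only Cpa3 and Hdc were. Cpa3, a mast cell protease, read 3.46, 9.05, 5.19 and 6.75 in L-GMPs, and the histamine enzyme gene Hdc read 6.71, 8.23, 6.62 and 6.76. Both were highest in replicate B, whereas the eosinophil gene Prg2 was highest in replicate C (6.37), as were Epx, Prg3, Fcer1a, Mcpt8 and Il5ra. Gata2 was highest in replicate D and Ms4a2 in replicate A, and Ms4a2 (5.20) and Fcer1a (2.93) were lowest in replicate B. The part of these cells in the Serpinb6b result was not tested.

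The genes next to Serpinb6b did not pass the test. In map order on chromosome 13 the measured members run from Serpinb6b through Serpinb9, Serpinb9b, Serpinb1b, Serpinb9c, Serpinb9d, Serpinb9g, Serpinb6e and Serpinb6c to Serpinb6a. The 9 after Serpinb6b had differences from -0.42 to 0.22. Serpinb6a, whose human counterpart SERPINB6 inhibits cathepsin G, read 6.16 to 6.51 in L-GMPs and 6.05 to 6.81 in GMPs. Its difference was -0.13 (95% interval -0.50 to 0.25, adjusted p = 0.689), and turned to 0.01 after median centring. Serpinb6b and Serpinb6a thus differed in their values although they are close relatives, and the difference between these 2 genes was not tested.

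Serpinb9 is the mouse relative of human SERPINB9, the inhibitor that protects cells from granzyme B. It read 4.20, 4.40, 4.15 and 4.27 in L-GMPs, against 4.89, 4.80, 3.97 and 5.04 in GMPs. GMP replicate C lay below all L-GMPs and the other GMPs above them. The difference was -0.42 (SE 0.20, 95% interval -0.87 to 0.04, adjusted p = 0.228), but -0.65 without GMP replicate C (adjusted p = 0.0082). Its other probe set gave -0.35 (adjusted p = 0.102). There GMP replicate C was not low, with 3.51, 3.56, 3.75 and 3.77 in GMP replicates A to D. Several Serpinb9 genes are near copies, so their probes may share signal.

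Of the 17 clade B serpins, 1 fell (Serpinb6b) and 0 rose, with a median difference of -0.08. That is 5.88% lower, near the 7.27% lower among all genes. Serpinb8, an intracellular inhibitor of furin in humans, read 5.52 to 6.08 in L-GMPs and 5.87 to 6.33 in GMPs, with a difference of -0.34 (adjusted p = 0.161). The clade B genes on chromosome 1 known from skin and other epithelia, among them Serpinb3a, Serpinb5 (maspin), Serpinb7, Serpinb11 and Serpinb12, had differences from -0.10 to 0.19. Serpinb2, which inhibits plasminogen activators and is induced in activated macrophages, read 2.22 to 2.36 in L-GMPs and 2.24 to 2.57 in GMPs. Both ranges are under the 10th percentile of the arrays (2.84 to 2.92).

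Clade A showed 0 calls among 14 genes (0 also at an unadjusted p under 0.05). Among all genes 12.1% were called, so 0 of 14 does not set the clade apart. Its differences ran from -0.22 to 0.24, with a median of 0.01. All 14 had a mean below the median gene (5.95), and 8 were below the arrays’ lower quartile throughout. Serpina12 (vaspin) read 4.49 to 5.21 in L-GMPs and 4.24 to 4.98 in GMPs. Serpina5, the protein C inhibitor, had the largest difference, 0.24 (95% interval -0.20 to 0.69, adjusted p = 0.482). The hormone carriers Serpina6, for corticosteroids, and Serpina7, for thyroxine, had differences of 0.15 and -0.08, and Serpina3n of 0.12.

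Across the families, 7 of 52 members had a mean above that of the median gene, namely Slpi, Cst3, Cst7, Cstb, Serpinf1, Serpini1 and Serpinb6a. Of these 7, 2 rose and 1 fell (42.9% called), and of the other 45, 0 rose and 1 fell (Serpinb6b, 2.22%), against 12.1% of all genes. That 12.1% is not split by brightness. In the fit without the dimmest 50% of genes, 1729 of 9097 genes were called, a larger share than 12.1%. The shares of the 2 parts therefore do not set these members apart from other genes. In all, 20 members were below the arrays’ lower quartile on all 8 arrays. Brightness also depends on the probes, so these positions describe signal on the array and not amounts of RNA.

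L-GMP replicate B lay nearest to the GMP mean in all 4 called members. Over all 2193 called genes, replicate B was the nearest L-GMP array in 764 (34.8%), replicate D in 29.9%, replicate A in 20.2% and replicate C in 15.1%. GMP replicate D had a difference of 2.74 between the 3′ and 5′ Gapdh control probe sets, a sign of RNA quality, against 1.46 to 1.76 in the other GMPs and 1.24 to 1.55 in L-GMPs. With L-GMP B and GMP D both left out the differences were 1.89 for Slpi, 0.61 for Cstb, -1.94 for Serpinf1 and -2.68 for Serpinb6b. All 4 were still called, with adjusted p-values up to 0.0142. Of 10 markers of the GMP itself, 1 rose (Csf2rb, by 0.77) and 4 fell (Elane by 1.75, Kit by 0.96, Prtn3 by 0.84 and Mpo by 0.39). These are 10% and 40%, against 4.78% higher and 7.27% lower among all genes. The mean level of the 10 markers was 10.59 to 10.99 in L-GMPs and 10.97 to 11.08 in GMPs. Mpo lost its call after median centring, with the replicate block and against a minimum fold of 1.5. It also lost it in 3 of the 8 fits without a single array (limma adjusted p 0.0516 to 0.0592).

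**Figure D3:**
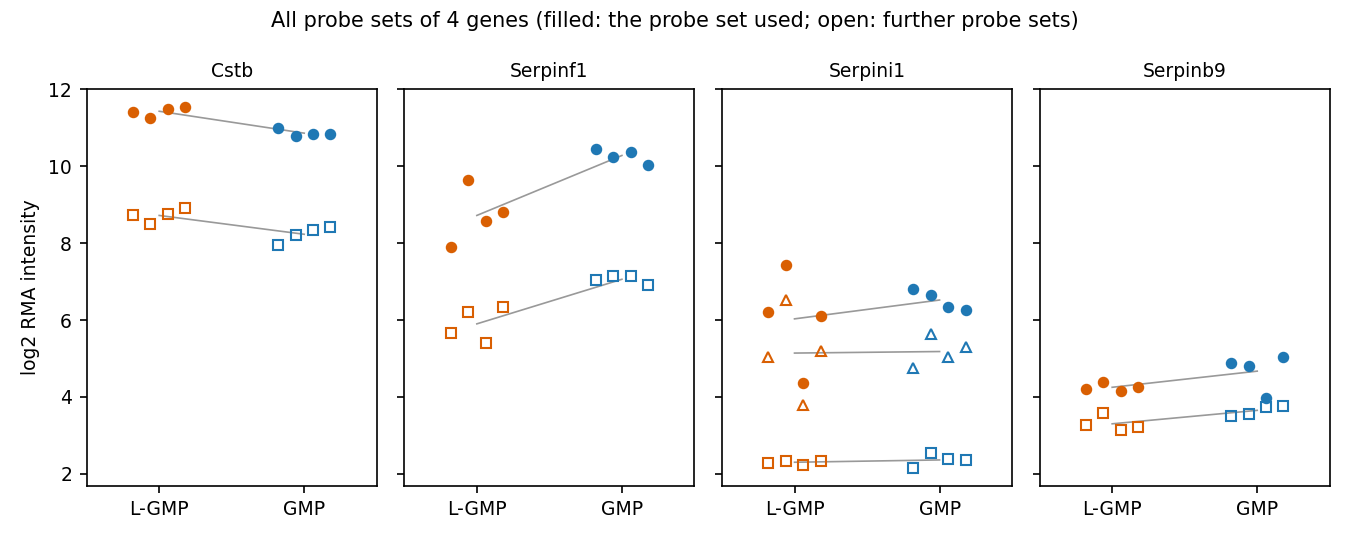
Log2 RMA intensity (vertical axis) of every probe set of Cstb, Serpinf1, Serpini1 and Serpinb9 on each array, L-GMP in orange on the left and GMP in blue on the right, with filled circles for the probe set used, open squares or triangles for further ones and lines joining group means. Both probe sets of Cstb are higher and both of Serpinf1 lower in L-GMPs, and 2 of the 3 Serpini1 probe sets read 3.80 and 4.37 in L-GMP replicate C and 6.53 and 7.43 in replicate B, while the dimmest read 2.24 and 2.32.

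Slpi and several clade B serpins inhibit serine proteases of granules. Of 16 measured proteases of myeloid and mast cell granules, 0 rose and 4 fell (25%, against 7.27% lower among all genes), with a median difference of -0.02. After median centring, where 71.1% of 3196 called genes were higher, 3 rose and 3 fell. The list thus has no direction that holds under both scalings. Gzmb, granzyme B, a protease of killer cells and mast cells, read 4.29, 4.20, 3.47 and 4.18 in L-GMPs, against 7.65, 6.32, 7.20 and 6.81 in GMPs, and fell by 2.96 (SE 0.27, adjusted p = 5e-05). The values of Elane, which encodes neutrophil elastase, were 11.26, 11.24, 9.73 and 11.97 in L-GMPs, against 12.86, 12.62, 12.66 and 13.03 in GMPs. Neither gene had overlapping groups, and Elane was lowest in L-GMP replicate C. Prtn3, proteinase 3, fell by 0.84 (SE 0.18, adjusted p = 0.0129) and Elane by 1.75 (SE 0.37, adjusted p = 0.0127). Both lost their call with L-GMP B and GMP D left out (adjusted p = 0.0532 for Elane and 0.0714 for Prtn3), and Elane also with a trended, robust prior.

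Ctsg, cathepsin G, averaged 13.07 ± 0.07 in L-GMPs and 13.22 ± 0.05 in GMPs (SD, n = 4 each), a difference of -0.15 by limma (adjusted p = 0.328). The fall of the mast cell chymase Cma1 (0.47, adjusted p = 0.0455) was lost in 7 of the 8 fits that leave out an array (adjusted p 0.0599 to 0.111). After quantile normalization 1 member of the list rose and 3 fell. The markers of eosinophils, basophils and mast cells given beside Serpinb6b, cells that hold some of these proteases, were mostly lower in L-GMPs. Of 5 measured T and NK cell markers 1 fell (Nkg7, by 4.91, a granule membrane protein) and 0 rose, with a median difference of -0.11. That is 20%, against 7.27% lower among all genes. Cd3e, Cd3g, Ncr1 and Cd7 had differences from -0.20 to 0.23. The mean level of the list, 3.97 to 4.43 in L-GMPs and 5.03 to 5.22 in GMPs, thus differed mainly through Nkg7. The part of these cells in the fall of Gzmb was not tested.

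Stefins and cystatins block the cysteine cathepsins. Of 11 measured cathepsins and legumain, 4 rose (36.4%, against 4.78% higher among all genes) and 0 fell, with a median difference of 0.25. Ctss, cathepsin S of antigen-presenting cells, read 11.04, 10.60, 11.18 and 11.13 in L-GMPs, against 9.07, 9.53, 9.13 and 9.48 in GMPs, a rise of 1.69 (SE 0.16, adjusted p = 5.99e-05). Ctsh, an aminopeptidase of lysosomes, read 9.55, 8.79, 9.91 and 9.15 in L-GMPs, against 7.91, 8.51, 8.17 and 8.08 in GMPs, and rose by 1.18 (SE 0.22, adjusted p = 0.00663). In both genes L-GMP replicate B was the lowest of its group and still above all GMPs. Ctsb, a lysosomal cathepsin that Cstb inhibits, rose by 0.44 (SE 0.10, adjusted p = 0.0145), a call lost with L-GMP B and GMP D left out (adjusted p = 0.0569). With the probe set of largest interquartile range the rise of Ctsb was 0.82.

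Ctsz, a lysosomal carboxypeptidase, rose by 0.41 (adjusted p = 0.0457), and 7 of the 8 fits without a single array lost that call (adjusted p 0.0653 to 0.117). Ctsc, which activates granule serine proteases and which Cst7 restrains, had a difference of -0.16 (adjusted p = 0.572). Ctsl had a difference of 0.32 and Lgmn, legumain, of 0.25, neither past the threshold, and Lgmn was dim on all arrays (2.55 to 3.44). Of the 9 macrophage markers given beside Slpi, 5 rose and 1 fell (55.6% and 11.1%, against 4.78% higher and 7.27% lower among all genes). The part of these cells in the cathepsin result was not tested.

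**Figure D4:**
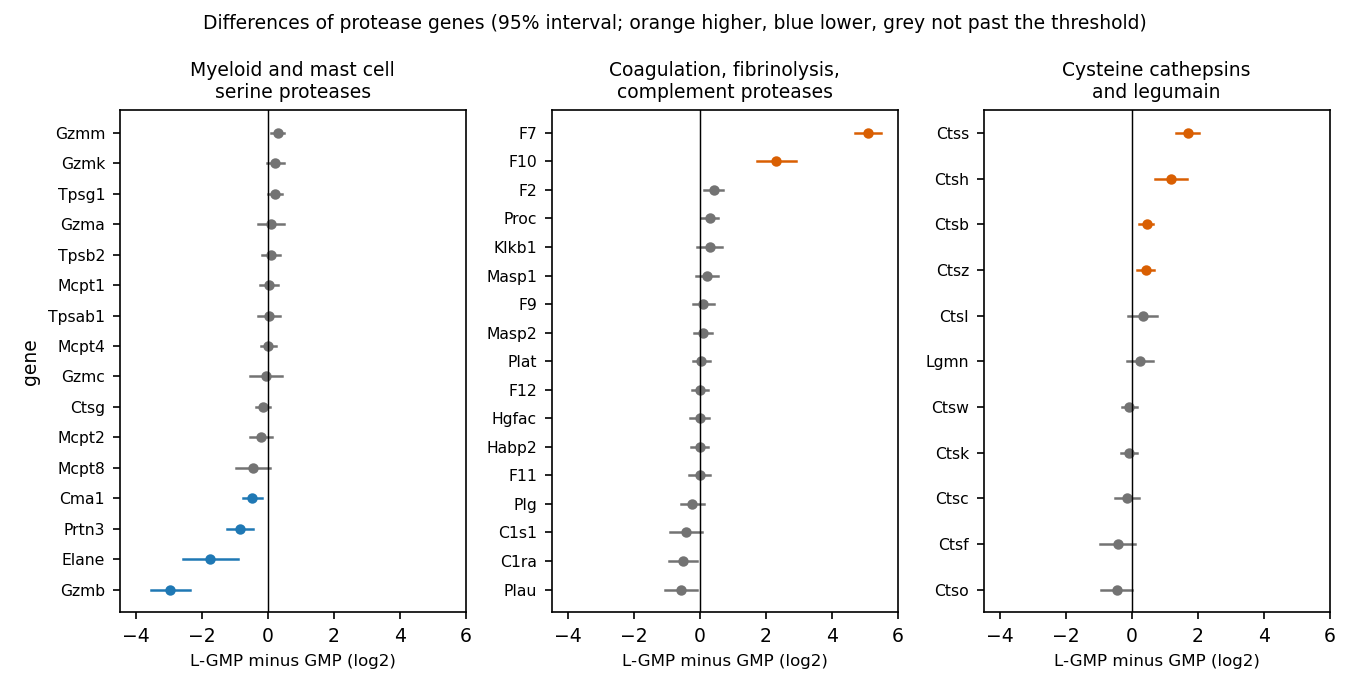
Differences in log2 intensity (L-GMP minus GMP, horizontal axis) with 95% intervals for 3 lists of proteases, orange where higher and blue where lower at adjusted p under 0.05 and grey otherwise. Gzmb (-2.96) and Elane (-1.75) lead the falls among granule serine proteases, F7 (5.09) and F10 (2.31) rise among plasma proteases, and Ctss (1.69) and Ctsh (1.18) lead the rises among cathepsins.

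Of 17 plasma serine proteases, among them targets of the secreted serpins, 2 rose and 0 fell, with a median difference of 0.04. That is 11.8% higher, against 4.78% among all genes, a share that rests on 2 genes. In either direction it is 11.8%, against 12.1%. After median centring 4 rose. Both called genes encode clotting factors. F10, factor X, read 11.08, 9.72, 10.66 and 9.83 in L-GMPs, against 7.88, 7.93, 8.21 and 8.02 in GMPs, and rose by 2.31 (SE 0.27, adjusted p = 0.00029). F7, factor VII, rose by 5.09. Antithrombin (Serpinc1), which inhibits factor X once activated, did not pass the test. Plau, the urokinase activator of plasminogen, had a difference of -0.57 (adjusted p = 0.13).

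Of 41 measured inhibitors of other families, 1 rose and 6 fell (17.1% called, against 12.1% of all genes), and the median difference was -0.00. After median centring 4 rose and 6 fell. Ctla2b, which resembles the propeptide of cysteine cathepsins, read 3.42, 3.66, 3.52 and 3.30 in L-GMPs, against 6.71, 6.51, 6.70 and 7.25 in GMPs, and fell by 3.32 (SE 0.16, adjusted p = 3.25e-07). Its near copy Ctla2a fell by 5.28, and probes may share signal between them. The L-GMP values of both lay near the arrays’ lower quartile, and over the alternatives the falls were as small as 2.23 for Ctla2b and 4.0 for Ctla2a, so these sizes are uncertain. Wfdc17, a small secreted protein of the same domain family as Slpi, read 8.04, 8.09, 8.08 and 7.20 in L-GMPs, against 5.14, 5.54, 3.86 and 5.86 in GMPs, a rise of 2.76 (SE 0.38, adjusted p = 0.000955). Another gene of that domain family, Wfdc21, fell by 2.29 (adjusted p = 0.0135). The called relatives of Slpi therefore moved in opposite directions. The other measured Wfdc genes did not pass the test, with differences from -0.25 (Wfdc15b) to 0.32 (Wfdc18).

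The other falls, chosen for naming after their values were seen, were Reck by 1.11, Spint2 by 1.09 and Itih5 by 0.68. Over the alternatives Reck ranged from -1.22 to -0.72 and Itih5 from -1.17 to -0.54. Reck restrains matrix metalloproteases, and Spint2 inhibits membrane serine proteases. Spint2 lost its call without GMP replicate D (adjusted p = 0.0507), and Itih5 with L-GMP B and GMP D left out (0.0576). Birc5, survivin, had a difference of 0.07.

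Of 10 measured receptors and partners of serpins, 1 rose and 1 fell (20% called, against 12.1% of all genes). After median centring 4 rose and 1 fell, in a fit that called 3196 of all 18193 genes, 71.1% of them higher. Lrp1, the endocytic receptor that clears complexes of serpins with proteases, read 6.92, 5.85, 6.18 and 6.96 in L-GMPs, against 5.60, 5.23, 5.30 and 5.59 in GMPs, and rose by 1.05 (SE 0.24, adjusted p = 0.0164). That call was lost without GMP replicate B or C (adjusted p 0.0544 and 0.0549). Vldlr, a related receptor, read 3.44 to 3.63 in L-GMPs and 4.39 to 6.38 in GMPs and fell by 1.90 (SE 0.35, adjusted p = 0.00538). Its L-GMP values were all under the arrays’ lower quartile, and with the mean of its 6 probe sets the fall was 0.76. The chaperone Hspa5 had a difference of -0.22 (adjusted p = 0.33).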

How the data were processed

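Sorted L-GMPs and GMPs were measured on 8 arrays, 4 per group, grouped by sample title. Per the labels, total RNA was extracted with Trizol and labelled with biotin. The authors deposited linear intensity values per probe set, made with RMA per the submitters' processing notes, which name no version. The labelling text describes sense-strand targets of whole transcripts, whereas the probe sets are of a kind designed near the 3′ end, and the strand measured is not settled here. Whether arrays of 1 group stem from different mice is not stated, so the p-values measure scatter among these samples alone, and it may be technical. The number of arrays limits the precision, and 0 columns were left unused.

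Intensities were put on a log2 scale. Among 45101 probe sets (64 of them controls), the platform annotation gives 34945 a single symbol, 932 more than 1 and 9160 none. RefSeq's GRCm38.p6 gene table held the Entrez identifier of 34741 single-symbol probe sets. No build is named with the values. Promoter coordinates and map order come from RefSeq's GRCm38.p6 tables, not from the arrays. Members had 68 probe sets, and 1 serpin gene is not reported here.

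The groups were compared with limma 3.58.1 (R 4.3.3; lmFit, eBayes, 2-sided, Benjamini-Hochberg over all 18193 genes). The fit was first tested on simulated data. The naming rule took all called members, members above the median gene, members without overlap, and the highest and the largest uncalled member of each class. From each other list it took up to 4 called genes with the largest differences and the highest gene. Serpinb8, Serpinf2 and the other genes given by value alone were added after values were seen. Members and lists were chosen with earlier results of these data known. No set test was run. Alternatives were other scalings, filters, probe set choices, priors, weights per array, a replicate block, an added intensity, a minimum fold and arrays left out. No source says that a letter pairs an L-GMP with a GMP array, so letters were not taken as pairs. Correlations of deviations from the group means ran from -0.067 to 0.112 between same-letter arrays. Between arrays of different letters they ran from -0.118 to 0.106. With 4 arrays per group these values cannot settle whether arrays were paired.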

Additional observations from a re-analysis of the deposited data

Results flagged for a closer look

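Serpinb6b in L-GMP replicate B, at 4.97, stood apart from the other L-GMP arrays (2.98 to 3.22), with a gap of 0.878 of the group's range, above Dixon's critical value for 4 samples. Over both groups of all 52 members, 6 of 104 groups had such a gap, where chance gives about 1 in 20. The other 5 were in Serpina10, Serpina1c, Serpina3n, Serpina4-ps1 and Serpind1, each in L-GMPs.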

How the results depend on the processing

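The calls of Slpi and Serpinb6b were kept under every alternative that tested them, with differences of 1.67 to 1.99 for Slpi and of -2.73 to -1.31 for Serpinb6b. A filter against the dimmest 50% of genes removed Serpinb6b, so 1 member fell there. Against a minimum fold of 1.5, which asks for more than a difference from 0, 1 member rose and 1 fell, and Cstb (adjusted p = 1) and Serpinf1 (0.143) were lost, as were most calls over all genes (389 in place of 2193). Cstb and Serpinf1 kept their calls in all other fits, with differences of 0.49 to 0.71 and of -1.94 to -1.16. With the replicate block 1760 genes were called, and the same 4 members. Median centring moved the median of all genes from 0.01 to 0.15 and called 4 members higher and 2 lower, adding Cst6 and Serpinf2. Of all called genes 39.7% were higher, against 71.1% of 3196 after centring and 49.4% of 2413 after quantile normalization. Every probe set on its own gave 4254 calls. Leaving out single arrays gave 1411 to 2388 called genes, lowest without GMP replicate B and 1425 without GMP replicate D. It gave 2 to 3 members higher and 2 to 3 lower, the extra calls being Serpinf2 and Serpinb9 without GMP replicate C.

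Differences that changed sign were those of uncalled members. Serpinb6a had 0.01 after median centring and 0.0038 after quantile normalization. Cst7 had -0.02 without L-GMP replicate B, -0.07 without replicate D and -0.01 with L-GMP B and GMP D left out. Over single arrays left out it ranged from -0.07 to 0.25. Serpina12 had -0.06 with array weights and -0.10 to 0.16 over single arrays left out, and Serpini1 had -0.95 to 0.07. Serpina5 had -0.0043 with L-GMP B and GMP D left out. The cause of these changes was not tested. Signal limits the dim members, of which 20 were under the lower quartile on all 8 arrays.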

Other observations

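A further 4 probe sets carry several symbols of these families in the annotation and were not tested. They read between 2.13 and 4.23 over the 8 arrays, and the differences between their means in L-GMPs and GMPs were -0.04 to 0.17.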
